A study of Homo sapiens with 4 samples.

Results

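A group of 10 genes of the annexin and galectin families is described here across single melanoma cells. They were chosen by symbol, as ANXA1, ANXA2, ANXA4, ANXA5, ANXA6, ANXA7, ANXA11, LGALS1, LGALS3 and LGALS3BP, and all 10 were present among the 19238 genes of the count table. The cells came from 4 human melanoma lines, each profiled as 1 library by droplet-based 3' RNA sequencing, so no line had a replicate. The lines were 113/6-4L, which the labels give a high potential of lung metastasis, 131/4-5B1 and 131/4-5B2, which they give a high potential of brain metastasis, and WM239A, labelled poorly metastatic, from which all 3 others were derived. No treatment, age or genetic change is given, and each derived line is called a subclone. The table held 8173 cells whose names end in 1 of 4 suffixes, and nothing in the labels or files ties a suffix to a line. The suffixes are therefore treated as 4 unlabelled samples, called sets 1 to 4, and no line is compared with another.

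Annexins are proteins that bind acidic phospholipids of membranes when calcium rises, through a conserved core of repeats, and their differing N-terminal tails decide which partners they bind. They are known for roles in membrane repair, vesicle traffic and the control of inflammation. Galectins are lectins made in the cytosol that reach the cell surface without a signal peptide and crosslink glycoproteins carrying beta-galactosides. In melanoma, galectin-1 and galectin-3 are known from work on cell adhesion, immune evasion and spread.

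The sets held 1779 to 2140 cells and 71182648 to 71915542 UMIs (unique molecular identifiers, each marking 1 captured RNA molecule). Levels are CPM, meaning UMIs of the gene per 1000000 UMIs of all genes, added up over every cell of the set, and are listed from set 1 to set 4. Intervals are exact 95% intervals (Poisson for levels, conditional binomial for ratios) and cover counting error only, because each set is 1 sample and its cells are not replicates. Fold values compare the cells of the sets and have no replicate check. Melanocytic markers were present in every set, with PMEL at 2201 to 4883 CPM and MITF at 196 to 267 CPM in the sets, while endothelial markers summed to at most 2.98 CPM. Of the barcode sequences, 39 occurred in more than 1 set.

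ANXA1, an inhibitor of inflammation that acts through formyl peptide receptors, differed most. It stood at 183 CPM in set 1 (180.1 to 186), 111 CPM in set 2 (109 to 114), 44.5 CPM in set 3 (42.9 to 46.1) and 50.9 CPM in set 4 (49.3 to 52.6). Set 1 was highest, set 2 lay between, and sets 3 and 4 were low and close to each other. Set 1 was 4.12-fold above set 3 (3.96 to 4.28) and 1.65-fold above set 2 (1.60 to 1.69), and set 2 was 2.50-fold above set 3 (2.40 to 2.61). Of the fibroblast markers looked up, 4 of 6 were in the table, and their summed level was 13.9, 2.38, 0.406 and 0.618 CPM in sets 1 to 4. LUM made up most of it, at 12.7, 2.18, 0.182 and 0.407 CPM, so it ran in the same order as ANXA1. DCN, with 68, 0, 1 and 1 UMIs in sets 1 to 4, was also highest in set 1, COL1A1 had 0, 2, 1 and 2 UMIs, and PDGFRA had 21, 12, 14 and 12 UMIs. No cell was identified as a fibroblast, and any link of these markers to the ANXA1 level was not tested.

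ANXA2, which pairs with S100A10 and binds plasminogen and its activator at the cell surface, was also highest in set 1. It stood at 811 CPM in set 1 (804 to 817), 491 CPM in set 2 (486 to 496), 458 CPM in set 3 (453 to 463) and 441 CPM in set 4 (436 to 446). Set 1 stood alone here, 1.65-fold above set 2 (1.63 to 1.67) and 1.84-fold above set 4 (1.81 to 1.87), while sets 2, 3 and 4 lay within 1.11-fold of each other. ANXA2 has processed copies in the genome (ANXA2P1, ANXA2P2 and ANXA2P3) that were not among the genes of the table, and reads shared with them could have been lost or assigned to ANXA2.

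**Figure D1:**
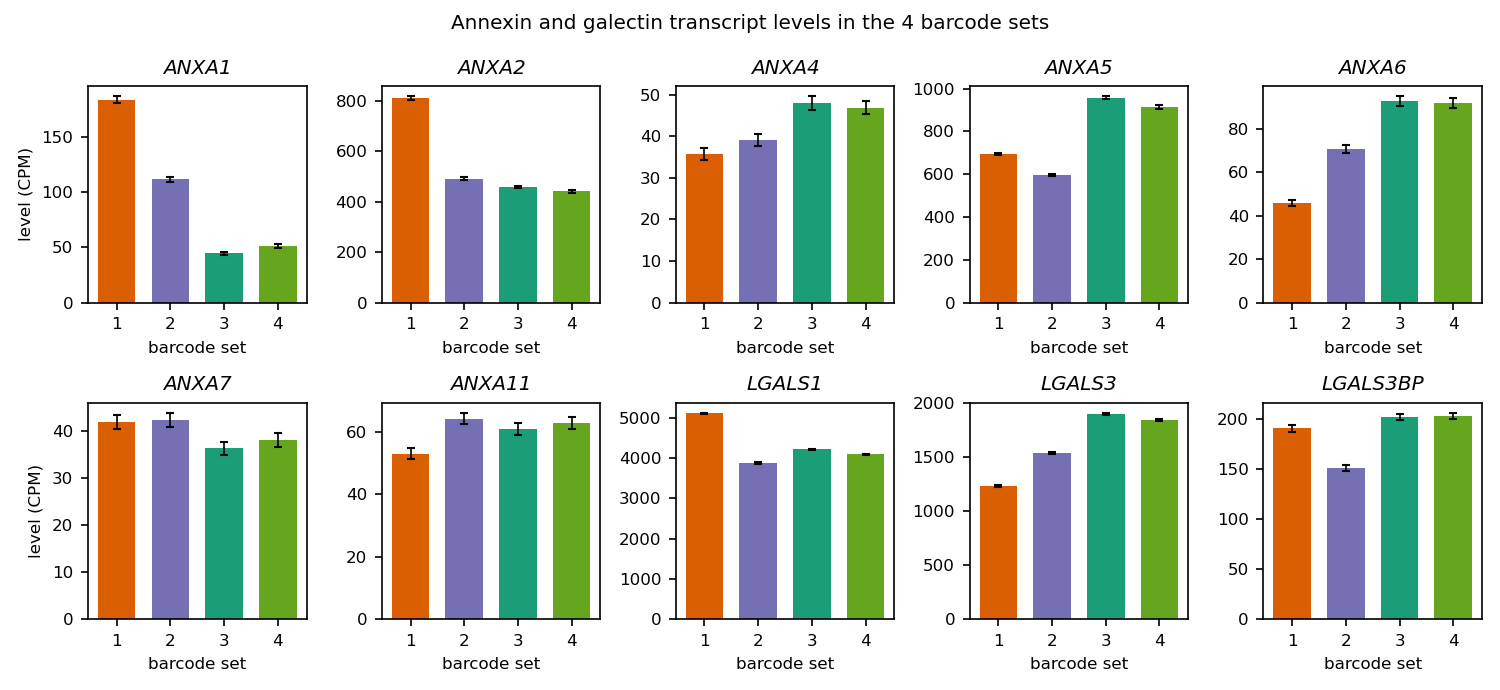
Level of each gene (CPM, axis from 0) in barcode sets 1 to 4, with bars for the summed counts and black error bars for the exact Poisson 95% interval. ANXA1 and ANXA2 are highest in set 1, at 183 and 811 CPM, whereas ANXA6 and LGALS3 are lowest there, at 45.9 and 1232 CPM.

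The promoters of ANXA1 and ANXA2, which shared set 1 as their highest set, are shown beside that of LGALS3, which was lowest there. Each is the 250 bases before the gene's start, 5′ to 3′ on the gene's strand, from RefSeq (GRCh38.p14), and capitals mark TATAAA and GGGCGG on either strand, the letters of a TATA box and of a GC box. Of the 10 genes, 9 had an entry in the promoter table, and LGALS1, also highest in set 1, had none. The windows are chr9:73151615-73151864 (plus strand) for ANXA1, chr15:60397987-60398236 (minus strand) for ANXA2 and chr14:55129002-55129251 (plus strand) for LGALS3.
ANXA1: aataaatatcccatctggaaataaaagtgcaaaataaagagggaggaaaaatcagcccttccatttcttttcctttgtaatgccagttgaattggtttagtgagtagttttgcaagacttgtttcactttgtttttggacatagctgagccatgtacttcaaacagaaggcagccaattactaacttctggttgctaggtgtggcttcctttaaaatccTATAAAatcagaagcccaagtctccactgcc
ANXA2: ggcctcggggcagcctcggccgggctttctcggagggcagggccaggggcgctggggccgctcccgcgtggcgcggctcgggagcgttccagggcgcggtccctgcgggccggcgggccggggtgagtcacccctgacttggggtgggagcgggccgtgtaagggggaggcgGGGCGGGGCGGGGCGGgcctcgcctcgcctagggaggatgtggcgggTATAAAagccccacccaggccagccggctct
LGALS3: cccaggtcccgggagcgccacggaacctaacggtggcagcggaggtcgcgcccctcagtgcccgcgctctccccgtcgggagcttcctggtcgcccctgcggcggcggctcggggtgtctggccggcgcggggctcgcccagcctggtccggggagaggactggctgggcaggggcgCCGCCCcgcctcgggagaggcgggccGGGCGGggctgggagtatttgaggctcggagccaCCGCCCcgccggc
TATAAA was found once in the window of ANXA1 and once in that of ANXA2, in both beginning 31 bases before the start, and not in the LGALS3 window. A window of ANXA11, which was lowest in set 1, also held TATAAA, beginning 61 bases before the start. The windows of the remaining genes with an entry did not. GGGCGG was found 0 times for ANXA1, 3 times for ANXA2, as overlapping copies, and 3 times for LGALS3. Over all 35116 windows of this length, 10.7% held TATAAA and 42.6% held GGGCGG. The bases G and C made up 38.4% of the ANXA1 window, 78.0% of that of ANXA2 and 78.8% of that of LGALS3. These matches describe the letters only.

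ANXA6, ANXA5 and ANXA4 ran the other way, with sets 3 and 4 on top. ANXA6, an annexin with a doubled core that links membranes to cholesterol traffic and Ras signalling, stood at 45.9 CPM in set 1 (44.3 to 47.5), 70.8 CPM in set 2 (68.9 to 72.8), 92.8 CPM in set 3 (90.6 to 95.1) and 92.0 CPM in set 4 (89.8 to 94.2). Set 1 was lowest and set 2 again lay between, and sets 3 and 4 did not differ beyond counting error (set 3 over set 4, 1.01, 0.975 to 1.04). Set 3 was 2.02-fold above set 1 (1.94 to 2.11), which on the log2(CPM + 1) scale is a difference of 1.001, right at the 2-fold mark.

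ANXA5, the phosphatidylserine binder used to stain dying cells, was lowest in set 2 rather than in set 1. Its level was 694 CPM in set 1 (688 to 700.4), 596 CPM in set 2 (590.2 to 601), 957 CPM in set 3 (949.7 to 964) and 914 CPM in set 4 (907 to 921). Sets 3 and 4 were thus both above sets 1 and 2, with set 3 1.61-fold over set 2 (1.59 to 1.63). ANXA4, a binder of membranes in epithelia and other tissues, stood at 35.8, 39.0, 48.0 and 46.9 CPM, and set 3 was 1.34-fold over set 1 (1.27 to 1.41). For ANXA4, as for ANXA6, the neighbours that did not differ beyond counting error were sets 3 and 4.

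ANXA7 and ANXA11, annexins with long tails that bind calcium proteins such as sorcin or ALG-2, were nearly level. ANXA7 stood at 42.0 CPM in set 1, 42.4 CPM in set 2, 36.4 CPM in set 3 and 38.2 CPM in set 4, with the highest set 1.17-fold over the lowest (1.11 to 1.23). ANXA11 stood at 53.0, 64.2, 60.9 and 62.7 CPM, with set 2 1.21-fold over set 1 (1.16 to 1.26). In ANXA7 sets 1 and 2 could not be told apart, nor sets 3 and 4, and in ANXA11 set 4 could be told apart from neither set 2 nor set 3.

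LGALS1 (galectin-1), a small lectin that acts as a dimer, was highest in set 1 by a modest margin. It stood at 5109 CPM in set 1 (5092 to 5126), 3879 CPM in set 2 (3864 to 3893), 4216 CPM in set 3 (4201 to 4231) and 4095 CPM in set 4 (4079.8 to 4110). Set 1 was 1.32-fold over set 2 (1.31 to 1.32). Every pair of sets differed beyond counting error, but among sets 2, 3 and 4 by no more than 1.09-fold.

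LGALS3 (galectin-3), which joins a lectin domain to a long tail that lets it form oligomers, had the opposite order to LGALS1 in set 1. It stood at 1232 CPM in set 1 (1224 to 1241), 1535 CPM in set 2 (1526 to 1544), 1900.2 CPM in set 3 (1890.2 to 1910.4) and 1848 CPM in set 4 (1838 to 1858). Set 3 was 1.54-fold over set 1 (1.53 to 1.56), and set 1 was lowest. LGALS3BP, a secreted glycoprotein that binds galectin-3, did not run with LGALS3. It stood at 190.4 CPM in set 1 (187 to 194), 151 CPM in set 2 (148 to 154), 202 CPM in set 3 (198 to 205) and 203 CPM in set 4 (199 to 206), and set 4 was 1.34-fold over set 2 (1.31 to 1.38). Set 2 was lowest for LGALS3BP, set 1 lay 1.06-fold below set 4, and sets 3 and 4 did not differ beyond counting error.

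All 10 genes passed the filter of at least 10 CPM in 1 or more sets, which left 7421 genes to compare. Of the 10, 2 (ANXA1 and ANXA6) spanned 2-fold or more across the 4 sets, against 5.85% of all compared genes. Spans were taken from log2(CPM + 1), which understates ratios of low genes. ANXA6 sits at the mark, and with a pseudocount of 10 CPM only ANXA1 was left. At least 1.5-fold apart were 5 of the 10 (ANXA1, ANXA2, ANXA5, ANXA6 and LGALS3), against a background of 17.3%. The median difference was 0.52 over the 10 genes and 0.33 over all compared genes, in log2 units. Set 1 held the top level of 3 of the 10 genes (ANXA1, ANXA2 and LGALS1), set 2 of 2, set 3 of 4 and set 4 of 1, against 44.9%, 19.2%, 18.2% and 17.7% of all genes. The bottom level was in set 1 for 4 of the 10, in set 2 for 3, in set 3 for 2 and in set 4 for 1, against 27.9%, 28.6%, 31.5% and 12.0% of all genes.

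Between sets 1 and 3, ANXA1 and ANXA6 were 2-fold apart, with 4.35% of all genes that far apart. Between sets 1 and 4 (background 4.12%), sets 2 and 3 (1.75%) and sets 2 and 4 (1.4%), the count was 1 gene each time, ANXA1. Between sets 1 and 2 (3.18%) and between sets 3 and 4 (0.0539%), the count was 0. ANXA6 missed the mark between sets 1 and 4 narrowly, and scaling by TMM, other totals, G1 cells alone or leaving out cells rich in mitochondrial RNA brought the count there to 2.

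**Figure D2:**
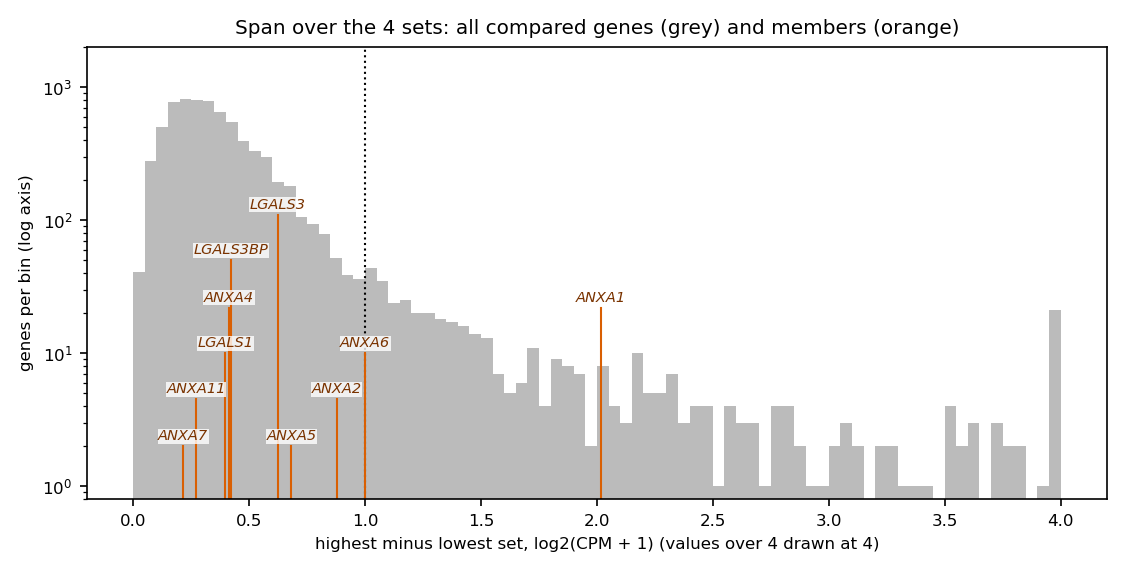
Span of log2(CPM + 1) across the 4 sets for 7421 compared genes (grey histogram, log count axis) with the 10 genes marked by orange lines whose height has no meaning. The dotted line marks 2-fold, and ANXA1 at 2.02 and ANXA6 at 1.001 are the genes of the 10 beyond it.

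Most other symbols of both families were absent from the table or under 10 CPM in every set. Of 11 other symbols looked up beside the annexins, pseudogenes and the ANXA2 receptor ANXA2R included, 4 were in the table (ANXA3, ANXA9, ANXA13 and ANXA2R), and ANXA3 alone reached 10 CPM, at 8.84 CPM in set 1, 39.5 CPM in set 2, 47.0 CPM in set 3 and 43.8 CPM in set 4. ANXA3, an annexin best known from neutrophils, was thus low in set 1 alone. Its span was 2.29 in log2(CPM + 1), beyond the 2-fold mark and wider than that of ANXA1, at 2.02. Of 15 other symbols of galectins and related proteins, 5 were in the table and LGALS8, a galectin with a pair of lectin domains, alone reached 10 CPM, at 40.4, 38.9, 29.3 and 31.1 CPM. LGALS9, a ligand of the checkpoint receptor TIM-3, had at most 0.403 CPM.

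Of 14 annexin partners looked up, 8 could be compared and 2 differed 2-fold (S100A6 and PLAT), where 5.85% of all compared genes did. S100A10, the partner of ANXA2, stood at 829, 853, 818 and 859 CPM, so it was level where ANXA2 was not. S100A11, the partner of ANXA1, stood at 565, 852, 834 and 859 CPM, low in set 1 where ANXA1 was high. S100A6 (calcyclin), which binds ANXA2 and ANXA11, stood at 1549, 1403, 702 and 800.1 CPM, and PLAT, the plasminogen activator that ANXA2 binds, at 51.9, 16.6, 26.3 and 21.8 CPM. The calcium proteins SRI (sorcin), at 310.4, 275, 199 and 217 CPM, and PDCD6 (ALG-2), at 247, 173, 148 and 156 CPM, were highest in set 1 without reaching 2-fold. The formyl peptide receptors FPR1, FPR2 and FPR3 were not among the genes of the table.

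Of 20 glycoproteins known to carry or bind galectins, 12 could be compared and 3 differed 2-fold (ALCAM, MCAM and FN1), and the share of 5.85% over all compared genes is the background of this count and of the next lists. MCAM, a melanoma adhesion molecule, stood at 61.6, 38.3, 24.3 and 24.2 CPM, ALCAM at 11.1, 8.08, 3.72 and 4.17 CPM, and FN1 (fibronectin) at 418, 179.6, 243 and 211 CPM, all highest in set 1. L1CAM stood at 33.8, 36.5, 18.2 and 19.6 CPM. None of 7 compared enzymes that branch, extend or cap N-glycans, the sugar chains that galectins read, differed 2-fold. Of these, MGAT1, which starts the branching, had the widest difference, at 53.7, 54.9, 75.1 and 76.9 CPM, and B4GALT3, B3GNT2 and ST6GAL1, a sialyltransferase whose cap can block galectin binding, were within 1.5-fold over the sets. Of 11 compared membrane repair genes 1 (TRIM16, a sensor of damaged lysosomes that binds galectin-3) differed 2-fold, at 29.4, 20.5, 14.1 and 14.6 CPM, while VPS4A, CAPNS1 and CHMP3 did not.

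To compare cells, each cell was thinned to 10000 UMIs, and 9 shallower cells were left out. LGALS1 was seen in every cell of every set at this depth, with medians of 49, 38, 41 and 40 UMIs per cell in sets 1 to 4. LGALS3 was seen in 99.8% of cells in set 1 (99.5% to 99.9%), in 100% in sets 2 and 3, and in nearly all of set 4, with medians of 11, 14, 18 and 17 UMIs. ANXA2 was seen in 96.7% to 99.1% of cells, with medians of 7, 5, 4 and 4 UMIs.

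ANXA1 parted the sets most by share of cells. A UMI was seen in 78.4% of cells in set 1 (76.6% to 80.2%), 63.3% in set 2 (61.04% to 65.6%), 32.8% in set 3 (30.8% to 34.8%) and 39.0% in set 4 (36.9% to 41.1%). Before thinning, these shares stood at 97.1%, 95.1%, 65.1% and 71.0%. ANXA4, ANXA6, ANXA7 and ANXA11 were seen in 30.2% to 58.9% of thinned cells. No cell type that should lack these genes was present, so the share due to free RNA could not be measured.

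Spread between cells was measured as the excess coefficient of variation, the part of a gene's relative spread beyond counting noise. For ANXA1 it was 0.791, 0.683, 1.00006 and 0.749 in sets 1 to 4, above that of at least 97.9% of the 2099 genes with 50 CPM in every set, a floor that ANXA1 itself missed in set 3. The typical gene lay lower, as the medians of those genes were 0.290, 0.265, 0.266 and 0.254. Without cells of under 2% mitochondrial UMIs (8, 24, 3 and 6 cells before thinning), the ANXA1 values were 0.672, 0.589, 1.003 and 0.748. They were thus lower in sets 1 and 2, where few cells made up part of the spread. Over all thinned cells of set 1, the highest ANXA1 count was 38 UMIs, against a median of 1. ANXA2 had 0.478, 0.432, 0.419 and 0.391, and LGALS3 had 0.460, 0.328, 0.341 and 0.347, both widest in set 1. LGALS1, at 0.324, 0.283, 0.264 and 0.252, was close to the median gene. In ANXA4 and ANXA11 the variance was below the mean in 1 set each, so no excess could be measured there.

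**Figure D3:**
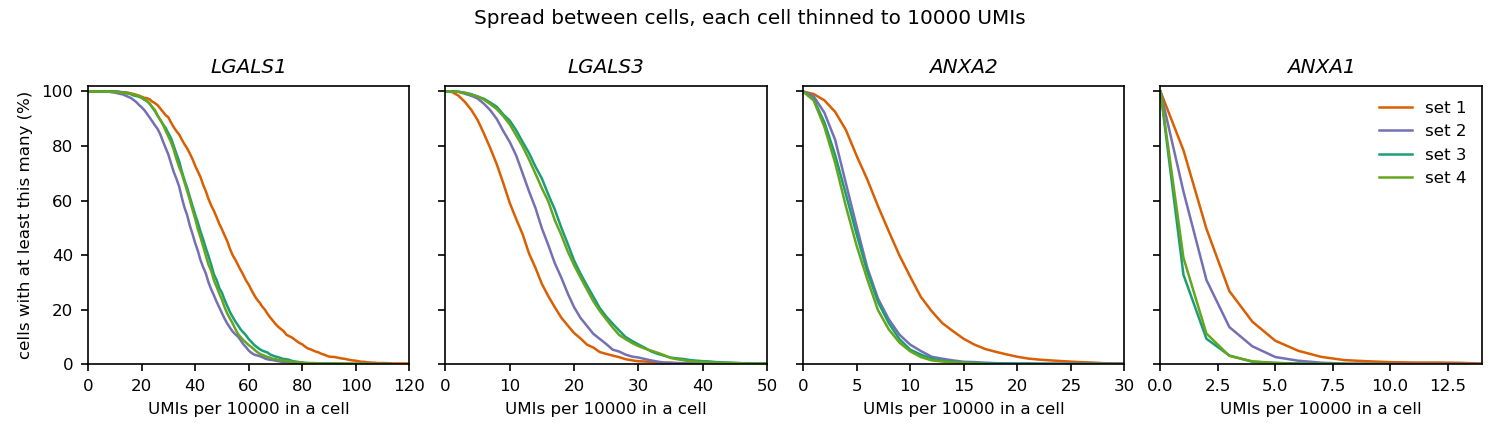
Share of cells (%) with at least a given number of UMIs for LGALS1, LGALS3, ANXA2 and ANXA1, in cells thinned to 10000 UMIs, with 1 line per barcode set. Set 1 (orange) lies to the right for LGALS1, ANXA2 and ANXA1, with medians of 49, 7 and 1 UMIs, and to the left for LGALS3, with a median of 11 UMIs.

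Among the 5 genes with at least 100 CPM in every set, levels were correlated over the cells of each set (Pearson r of log1p thinned counts, 1778 to 2139 cells that share library and depth). Most values of r were low. The highest value was for ANXA2 and LGALS1 in set 1, at 0.38, with 0.10, 0.14 and 0.16 in sets 2 to 4. ANXA2 and ANXA5 had 0.18, 0.15, 0.23 and 0.22. LGALS1 and LGALS3 had -0.16, 0.05, 0.03 and 0.11, with no direction shared by the sets. LGALS3 and LGALS3BP had 0.12, 0.06, 0.16 and 0.21. ANXA2 and its partner S100A10 had 0.21, 0.13, 0.11 and 0.13.

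The genes outside the family whose pattern over cells was most like each of these were ranked by the mean r over the 4 sets among 2093 genes. For LGALS3 they were VIM (vimentin, mean r 0.38), PMEL (a structural protein of pigment granules, 0.38) and CD63 (a tetraspanin of lysosomes and pigment granules, 0.33). PMEL and LGALS3 had 0.49, 0.27, 0.36 and 0.39 in sets 1 to 4, and MLANA, a melanocyte antigen that falls outside this ranking's first 3, had 0.45, 0.22, 0.28 and 0.29 with LGALS3. For LGALS3BP they were PMEL (0.27), APOE (0.17) and PKM (0.17). For LGALS1 they were S100A6 (0.22), TMSB10 (0.22) and VIM (0.22). ANXA2 and ANXA5 shared NPM1 and LDHB among their nearest genes, with mean r between 0.25 and 0.29, beside EIF4A1 for ANXA2 and SDCBP for ANXA5. For comparison, 99% of genes had a mean r at or under 0.203 with LGALS3 and 0.131 with LGALS1.

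LGALS1 and PMEL had r of -0.30, -0.14, -0.07 and 0.00 in sets 1 to 4, with the lowest value in set 1. To show sizes, cells of each set were split by their PMEL count, and the cells at or above the 75th percentile were set over those at or below the 25th (467 to 543 and 482 to 605 cells). LGALS3 was at 1540.3 CPM in PMEL-high and 816 CPM in PMEL-low cells of set 1, a ratio of 1.89 (1.82 to 1.96). The same ratio was 1.31 in set 2 (1.26 to 1.35), 1.41 in set 3 (1.37 to 1.45) and 1.49 in set 4 (1.45 to 1.54). LGALS3BP was higher in PMEL-high cells as well, by 1.56, 1.85, 1.79 and 2.02-fold in sets 1 to 4. LGALS1 was lower in PMEL-high cells of set 1, at 4362 CPM against 5775 CPM in PMEL-low cells (ratio 0.755, 0.743 to 0.768). Its ratios were 0.909, 0.907 and 0.977 in sets 2 to 4, with an interval of 0.959 to 0.995 in set 4. The median ratio over all genes was 0.996, 1.01, 0.980 and 0.990 in sets 1 to 4. LGALS1 exceeded 5.77%, 24.5%, 32.5% and 47.0% of all genes, so it was set apart in set 1 and near the median in set 4.

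Annexins did not all go the same way in this comparison. ANXA5 (1.21 to 1.32), ANXA6 (1.25 to 1.45) and ANXA11 (1.24 to 1.57) were higher in PMEL-high cells of all 4 sets. ANXA4 was at 1.03, 1.32, 1.31 and 1.38 in sets 1 to 4, and ANXA7 at 1.19, 1.18, 1.37 and 1.69. Their intervals included 1 in set 1 for ANXA4 and in sets 1 and 2 for ANXA7. ANXA1 was lower, with ratios of 0.813, 0.904, 0.656 and 0.824, of which the interval in set 2 included 1. ANXA2 had no common direction, at 0.755 in set 1 (0.724 to 0.787), 0.993 in set 2, 1.09 in set 3 and 1.23 in set 4 (1.16 to 1.30). Counted by a ratio of at least 1.2, 5, 6, 7 and 8 of the 10 genes were higher in PMEL-high cells of sets 1 to 4, against 13.3%, 15.6%, 13.3% and 15.0% of all genes. At least 1.2-fold lower were 3, 0, 1 and 1, against 12.8%, 10.5%, 17.1% and 16.4%. These shares over all genes include counting error of genes near 10 CPM in thinned cells, and its part was not tested. LGALS3 and LGALS3BP are in the higher count of every set. PMEL ranked among the genes most correlated with both in these same cells, so their place in that count is no separate result. PMEL-high cells held more cells assigned to G1 than PMEL-low cells in sets 2 to 4 (36.0% against 21.99%, 40.7% against 25.05% and 24.1% against 16.9%), but not in set 1 (37.5% against 37.0%). LGALS3 and PMEL had a mean r of 0.39 in G1 cells alone. No ratio of PMEL-high to PMEL-low cells was taken within a phase, so the part of the cycle in these ratios was not tested.

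**Figure D4:**
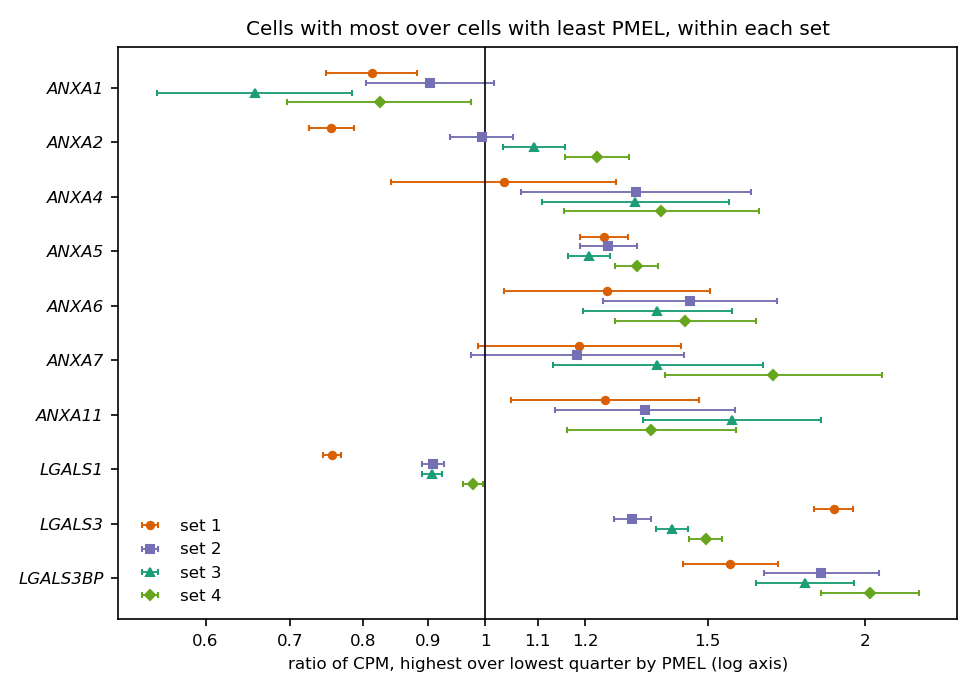
Ratio of CPM between PMEL-high and PMEL-low cells (log axis), for each gene and set, with exact 95% intervals from counting. LGALS3 and LGALS3BP lie right of 1 in all 4 sets (1.31 to 1.89 and 1.56 to 2.02). LGALS1 lies left of it (0.755 to 0.977), farthest in set 1 and close to 1 in set 4.

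Cell cycle phases were assigned from S and G2M gene scores of the thinned cells. LGALS3 was lowest in cells assigned to G2M in every set. In set 1 it stood at 1340.4 CPM in G1, 1263 CPM in S and 1035 CPM in G2M, and in set 3 at 2042 CPM in G1, 1945 CPM in S and 1663 CPM in G2M. G2M over G1 was 0.772, 0.842, 0.814 and 0.831 in sets 1 to 4. ANXA4 was lower by a like amount (0.790, 0.817, 0.733 and 0.797). LGALS1 was closer to 1, at 0.922 to 0.978, and so was ANXA5, at 0.932 to 0.991.

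The ratio of G2M to G1 was under 1 for all 10 genes in sets 1, 3 and 4 and for 9 in set 2, where ANXA7 was at 1.047 (0.951 to 1.15). It was under 1 for 44.5%, 44.05%, 43.9% and 41.3% of all compared genes in sets 1 to 4. The median over all compared genes was 1.02, 1.03, 1.03 and 1.04, and over the 10 genes 0.897, 0.920, 0.856 and 0.881. At least 1.2-fold lower in G2M were 2, 1, 4 and 3 of the 10, against 10.7%, 11.3%, 11.1% and 10.3% of all genes. None of the 10 was 1.2-fold higher there, where 21.0%, 20.7%, 21.1% and 22.3% of all genes were. Counting error of genes near 10 CPM is included in these shares over all genes, and its part was not tested.

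Levels were also set beside the mitochondrial share of a cell's UMIs, a sign of cell and RNA quality. Cells of over 10% (78, 177, 200 and 180 cells, with median UMIs of 16862 to 27606) had less LGALS3 than cells of 2% to 10% (median UMIs of 34234 to 42269). In set 1 LGALS3 was at 707 CPM in cells of over 10% and 1244 CPM in cells of 2% to 10%, and the ratio was 0.568, 0.774, 0.663 and 0.642 in sets 1 to 4. ANXA2 was lower in these cells as well (0.569, 0.781, 0.702 and 0.663), and so was LGALS1 (0.732, 0.816, 0.836 and 0.864). ANXA1 was not set apart, with intervals that included 1 in all 4 sets. At least 1.2-fold lower were 6, 3, 5 and 5 of the 10 genes, against 28.2%, 21.3%, 21.5% and 23.5% of all genes, and the median ratio of all genes was 0.988, 0.955, 0.957 and 0.963. None of the 10 was at least 1.2-fold higher, against 28.6%, 13.5%, 13.0% and 15.1% of all genes. The shares over all genes include genes near 10 CPM, whose ratios in so few cells carry more counting error than those of the 10. How much of the shares is counting error was not tested.

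**Figure D5:**
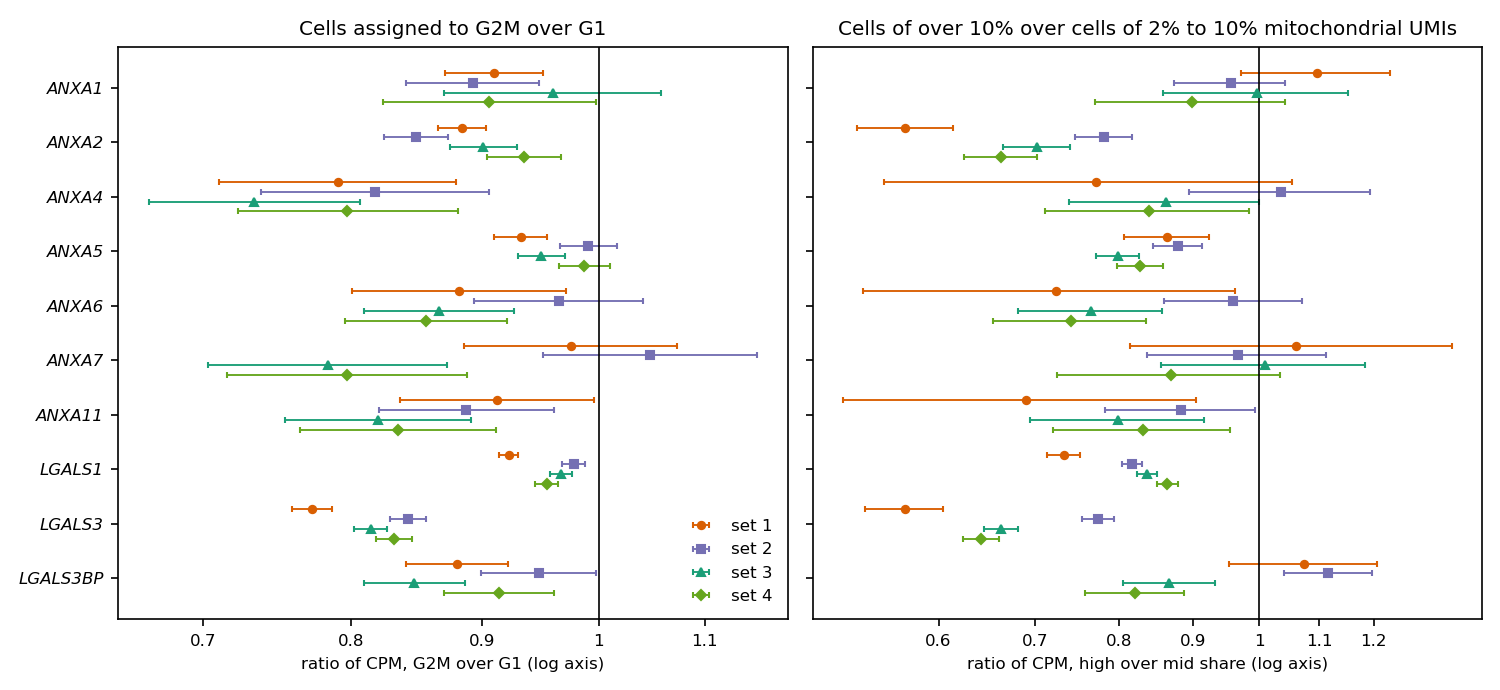
Ratios of CPM for each gene and set (log axes, exact 95% intervals from counting), with G2M over G1 cells on the left and cells of over 10% over cells of 2% to 10% mitochondrial UMIs on the right. LGALS3 lies left of 1 in both (0.772 to 0.842 and 0.568 to 0.774), and ANXA1 lies near 1 on the right.

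Cells of under 2% mitochondrial UMIs were few, and only set 2 had at least 20 of them. In those 24 cells, whose median was 13503 UMIs, ANXA1 was at 467 CPM (402 to 538), against 109.6 CPM (107 to 112) in cells of 2% to 10%, a ratio of 4.26 (3.66 to 4.92) that exceeded that of 99.7% of all genes. ANXA7 (3.02, 2.25 to 3.99), ANXA5 (2.06, 1.88 to 2.25) and ANXA2 (1.67, 1.49 to 1.86) were higher too. LGALS1 (0.684, 0.644 to 0.726) and LGALS3 (0.738, 0.672 to 0.808) were lower, while the intervals of ANXA11 (1.12, 0.748 to 1.61) and LGALS3BP (0.933, 0.704 to 1.21) included 1. Of the 10 genes 6 were at least 1.2-fold higher, against 44.3% of all genes, and 2 lower, against 29.5%. With 24 cells, these shares over all genes also include counting error of low genes.

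In set 1, 894 thinned cells had a UMI of MMP1, the interstitial collagenase, and 1221 had none. ANXA1 was at 221 CPM (211 to 231) in cells with and 172 CPM (165 to 179.8) in cells without it, a ratio of 1.28 (1.21 to 1.36). ANXA2 was at 904 CPM in cells with and 743 CPM in cells without MMP1 (ratio 1.22, 1.18 to 1.25), and LGALS1 at 5578 CPM against 4768 CPM (1.17, 1.16 to 1.18). LGALS3 was lower in cells with MMP1 (0.885, 0.862 to 0.907). At least 1.2-fold higher were 3 of the 10 genes (ANXA1, ANXA2 and ANXA7), against 4.61% of all genes, and none was 1.2-fold lower, against 4.72%. Both shares over all genes include counting error of genes near 10 CPM in thinned cells, and its part was not tested.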

How the data were processed

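Cells of 4 melanoma lines were profiled with a Chromium Single-cell 3' kit, per the labels' protocols. The submitters' processing notes name Cell Ranger 3.0.0, Seurat 3.0 and the builds hg19 and mm10 with no role for any of them. The authors deposited UMI counts per gene and cell, which were used as deposited. A natural log version of the table was left aside. Cells held 3001 to 6999 genes and at most 19.9% mitochondrial UMIs. Doublets and free RNA were left in, so cells of high UMIs may be doublets.

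Counts were summed per barcode suffix and scaled to CPM, and genes reaching 10 CPM in any set were compared by the size of their difference in log2(CPM + 1). No test was run and no p-value computed, since each set is 1 unlabelled sample. Cells were thinned without replacement to 10000 UMIs. Phases came from scanpy 1.11.5 with 40 S and 54 G2M genes. TMM factors came from edgeR 4.0.16 in R 4.3.3, and all else was computed in Python 3.11.15 with numpy 2.4.6 and scipy 1.17.1. Calculations were tested on simulated data.

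The members and lists were chosen with earlier results of these data known. Named were all 10 members, up to 4 genes of each list with the widest difference over the sets, and for each member with at least 100 CPM in every set the 3 most correlated genes with at least 50 CPM. The genes named besides (S100A10, S100A11, MLANA, TYRP1, LGALS9, ANXA9, ANXA13, ANXA2R) and the fibroblast markers, the split of cells by PMEL and by MMP1, and the 1.2-fold and 1.5-fold counts were chosen after the files had been seen. Of 10 members 9 matched the RefSeq promoter table (GRCh38.p14).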

Additional observations from a re-analysis of the deposited data

How the results depend on the processing

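No paired analysis was possible because the labels number no replicates and give every line a single library, so none could be left out either. Leaving out cells of under 2% mitochondrial UMIs or cells sharing a barcode sequence, and the alternatives for correlations with PMEL, VIM, CD63, MLANA, S100A6 and TMSB10, were chosen after seeing the data. No difference between the highest and lowest set of any of the 10 genes changed direction under 8 alternatives each. Of those 80 values, 56 moved less than counting error and 24 more, and ANXA7 moved farthest relative to its size, to 0.04 from 0.22 (log2) in G1 cells. The moves beyond counting error were uneven over the alternatives, at 8 of 10 genes in G1 cells and 7 with TMM. They were 5 with totals without mitochondrial and ribosomal protein genes. With a pseudocount of 10 CPM, and without cells of over 10% mitochondrial UMIs, they were 2 each, and 0 in the remaining alternatives. ANXA1 ranged from 1.83 with a pseudocount of 10 CPM to 2.19 in G1 cells. The count of members at least 2-fold apart over the sets was 1 with a pseudocount of 10 CPM, against 2, and with that pseudocount it was 1 between sets 1 and 3, against 2, and 0 between sets 2 and 4, against 1, since a larger pseudocount shrinks ratios. Between sets 1 and 4 it was 2 in place of 1 with TMM, with totals without mitochondrial and ribosomal protein genes, in G1 cells and without cells of over 10% mitochondrial UMIs, as ANXA6 crossed the mark. Over all genes the count of 434 became 198 with a pseudocount of 10 CPM, 126 with a minimum of 50 CPM and 1012 with no filter. For sets 1 and 2, 1 and 3, 1 and 4, 2 and 3, and 2 and 4 the counts over all genes were 236, 323, 306, 130 and 104, against 94, 146, 128, 46 and 38 with that pseudocount, 61, 95, 88, 35 and 32 with that minimum, and 539, 705, 680, 269 and 203 with no filter. For sets 3 and 4 the count was 4, against 2 with that pseudocount and 10 in G1 cells. Totals without mitochondrial and ribosomal protein genes raised the median of all genes by 0.47, 0.50, 0.53 and 0.51 in sets 1 to 4 (log2). Of 80 shares of cells 69 moved beyond counting error at another depth, of 200 values of spread 36 moved by more than the standard deviation over the sets, and of 60 mean correlations among the 5 genes with at least 100 CPM in every set 10 did, as did 5 of 56 with PMEL, MLANA and the genes ranked beside LGALS1 and LGALS3. Moves in spread were uneven, as 20 values moved and 20 did not in G1 cells, and 11 moved and 29 did not at 5000 UMIs. Without cells of over 10% mitochondrial UMIs 3 values of spread moved, and without cells of under 2% 2 did. None did without the 5% of cells with most UMIs. Phases assigned at the deposited depth left 76 of 80 ratios within counting error. LGALS3 and PMEL had a mean r of 0.30 to 0.39 under the alternatives.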
